A study of Pimephales promelas and Coturnix japonica and Xenopus laevis with 724 samples.

Results

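Read counts of coded identifiers were examined for fathead minnow (Pimephales promelas) embryos exposed to lead, a set of 15 RNA sequencing libraries out of 724 in the series. The fathead minnow is a small freshwater fish of the carp family that is used widely in toxicity testing. The 15 libraries were taken from the table of early-life minnows and lead by their labels: 5 of the controls (CTRL), 5 of a middle level of lead (MED) and 5 of a high level (HIGH). Every group is whole embryos of the same species and stage, and the control libraries carry the chemical label dmso, a solvent. No label says whether the MED and HIGH embryos also received that solvent, so lead and a difference in solvent cannot be told apart from the labels. The labels name no strain, age in days, concentration or duration of lead, so MED and HIGH are used only as ordered names. Each group holds 1 library under each of the replicate letters A, B, C, E and F. No label says whether a library is 1 embryo or a pool, or whether the letters are separate spawns or days. The p-values below rest on the differences among such libraries, and part of those may be technical.

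Lead is a toxic metal with no known function in vertebrates. It binds in place of zinc and calcium in proteins. Its best known target is the zinc enzyme delta-aminolevulinic acid dehydratase in haem synthesis, and it also disturbs calcium-dependent signalling in nerve cells. Vertebrate cells answer many metals by making metallothioneins, small cysteine-rich metal-binding proteins, and embryos and larvae are treated as sensitive stages for neurotoxic effects of lead. None of these genes can be looked up here, because the table gives counts for 23851 coded identifiers (s2f numbers), and 0 of them matched the 64593 genes of the RefSeq table for this species. The embryo label could not be checked against marker genes for the same reason. The results are therefore about how many identifiers changed, by how much and in which libraries, and 4 identifiers are followed by their codes.

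Library totals ranged from 14073327 to 27302759 counts, and 20099 to 20954 identifiers had a count above 0. Total counts averaged 21198913 ± 3428950 in HIGH libraries and 18517060 ± 4863511 in CTRL libraries (SD, n = 5 each). This difference did not pass an exact two-sided permutation test (p = 0.325, adjusted over 3 library measures 0.325). The smallest p that this test allows is 0.00794. The tests of all 3 library measures were unpaired and took no account of the replicate letter. The 100 most abundant identifiers held 34.4% ± 1.26 of counts in HIGH libraries and 35.6% ± 1.11 in CTRL libraries (SD, n = 5 each; exact permutation p = 0.167, adjusted 0.325). Detected identifiers numbered 20663 ± 231 in HIGH libraries and 20449 ± 322 in CTRL libraries (exact permutation p = 0.262, adjusted 0.325). Pairs of libraries of 1 group differed far beyond sampling noise, with chi-square values of 6.40 to 29.1 per degree of freedom. No pair within a group thus looks like a library deposited again. Pairs of libraries from different groups were not compared in this way.

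Some libraries stood apart from their groups. On the first principal component of log2 CPM (read counts scaled to a common library total), which held 25.2% of the variance, the 5 HIGH libraries lay at 22.6 (A), 21.4 (B), 24.9 (C), 25.5 (E) and -1.81 (F). HIGH replicate F thus lay far below the other HIGH libraries. The CTRL and MED libraries of letter F were low as well, at -35.6 and -29.4. Each of the 3 libraries of letter F was thus the lowest of its level, though they lay far from one place. The library labelled MED replicate B lay at -29.3, against 10.6 (A), 10.5 (C), -0.237 (E) and -29.4 (F) for the other MED libraries. On this component it also lay below CTRL replicates A, B, C and E, at -10.2, -1.16, 5.48 and -13.5. Over the identifiers that changed at least 2-fold at HIGH, this library lay with the CTRL libraries and not with the other MED libraries, as given below, and in that it went against its label. The counts and fold changes that involve MED are therefore given with and without the library labelled MED replicate B. It was singled out by its values at identifiers that changed at HIGH. Leaving it out therefore moves the MED values at such identifiers towards HIGH by construction. P-values from those fits do not allow for this choice. That library also enters the spread used for HIGH against CTRL, as given below.

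**Figure D1:**
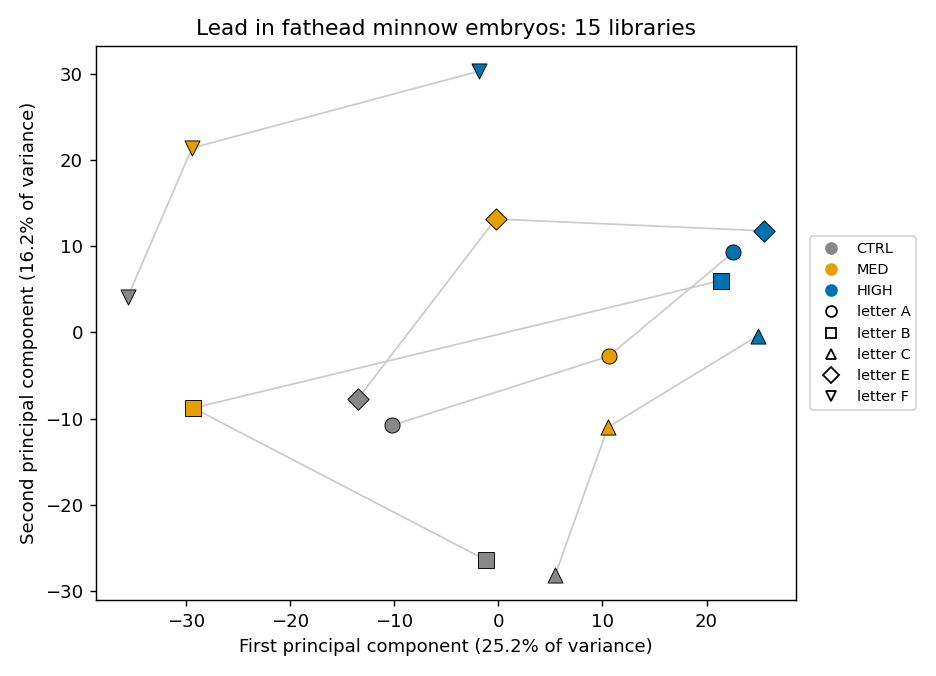
First and second principal components (arbitrary units, with the percentage of variance held) of log2 CPM over 15 libraries, coloured by level (CTRL, MED, HIGH), with 1 marker shape per replicate letter and grey lines joining the libraries of a letter. Within every letter the HIGH library lies to the right of the CTRL library, each library of letter F lies above and to the left of the others of its level, and the library labelled MED replicate B lies at -29.3 on the first component.

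The first comparison asked which identifiers changed at the high level of lead. HIGH and CTRL libraries differed at 3848 of 17479 identifiers tested (22.0% called) by edgeR's quasi-likelihood test with the replicate letter as a block and a Benjamini-Hochberg adjusted p below 0.05. Of these, 2039 (11.7%) were higher and 1809 (10.3%) were lower in HIGH embryos. Without the letter in the fit, 2197 were called (1169 higher and 1028 lower). Leaving out CTRL replicate E gave 2538 calls. The spread was estimated over all 15 libraries, MED among them, and leaving out the library labelled MED replicate B gave 4446 calls. In whole embryos, fewer cells of a type and less RNA per cell cannot be told apart, for these and all later differences.

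Most changes were small, and the larger ones were mainly rises. The median log2 fold change (HIGH over CTRL) of the identifiers called higher was 0.40 (quartiles 0.27 and 0.63), and 1476 of them (72.4%) rose by less than 1.5-fold. The identifiers called lower had a median of -0.32 (quartiles -0.43 and -0.24), and 1673 of them (92.5%) fell by less than 1.5-fold. Among those called higher, 187 rose at least 2-fold and 21 at least 4-fold. Among those called lower, 27 fell at least 2-fold and 1 at least 4-fold. Rises were called more often than falls among scarce identifiers, where a call needed a larger change, as given below. The part of abundance in the sizes of rises and falls was not tested. The median over all identifiers tested was 0.0016. No called identifier was at 0 counts in all libraries of either group, so each of these folds rests on counts in both.

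The 4 identifiers followed by code were the largest change and the other change with the smallest p in each direction. They were taken from those that averaged at least 5 normalised CPM in the higher group and had no overlap between HIGH and CTRL libraries. The lack of overlap at these 4 was thus fixed by the choice and is not a result. That rule left 868 identifiers that rose and 828 that fell to choose from. Over all identifiers tested, every HIGH library lay above every CTRL library at 1145 (6.55%) and below at 966 (5.53%). The proteins behind the 4 codes are not given by any source used here.

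The largest rise was that of s2f_0000886006. It stood at 1557, 1966, 1842, 1560 and 2977 normalised CPM in HIGH replicates A, B, C, E and F, against 54.1, 54.7, 62.6, 61.3 and 58.1 in CTRL replicates A, B, C, E and F. Every HIGH library was far above every CTRL library, and HIGH replicate F was the highest. The 5 CTRL libraries lay close together. Its log2 fold change was 5.06 ± 0.75 (SE; edgeR adjusted p = 0.00236). That SE draws on all 15 libraries. Without the library labelled MED replicate B the change was 5.05 ± 0.18 (SE, edgeR adjusted p = 1.94e-07). The identifier was abundant in HIGH embryos, with raw counts of 28552 to 76014 per HIGH library and 772 to 1442 per CTRL library.

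The smallest p among the other rises was that of s2f_0000076002. It stood at 43.2, 39.9, 36.6, 39.2 and 36.8 normalised CPM in HIGH replicates A, B, C, E and F, against 14.4, 13.9, 14.8, 16.2 and 15.1 in the CTRL replicates of the same letters. Neither group held a library apart from the rest. Its log2 fold change was 1.39 ± 0.093 (SE; edgeR adjusted p = 2.24e-06).

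The largest fall was that of s2f_0005342001. It stood at 39.4, 16.7, 32.5, 6.83 and 43.5 normalised CPM in HIGH replicates A, B, C, E and F, against 152, 181, 134, 116 and 177 in the CTRL replicates of the same letters. The HIGH libraries were the more spread out relative to their level, and letter E was the lowest in both groups. Its log2 fold change was -2.57 ± 0.38 (SE; edgeR adjusted p = 0.00237), and it was the 1 called identifier that fell at least 4-fold.

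The smallest p among the other falls was that of s2f_0002280005. It stood at 12.2, 8.70, 11.4, 10.001 and 13.9 normalised CPM in HIGH replicates A, B, C, E and F, against 32.7, 22.2, 25.2, 25.7 and 27.2 in the CTRL replicates of the same letters. The lowest library of each group was letter B. Its log2 fold change was -1.25 ± 0.089 (SE; edgeR adjusted p = 2.24e-06).

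**Figure D2:**
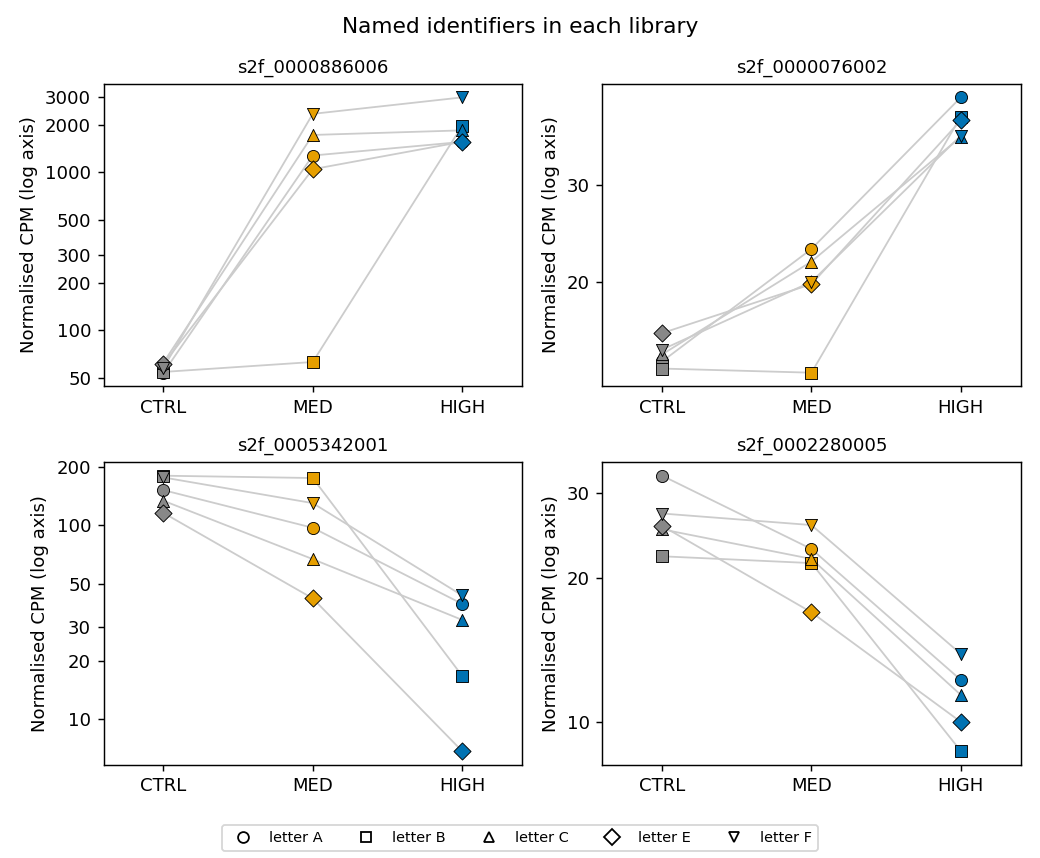
Normalised CPM (log axis) of the 4 identifiers in the 15 libraries, by level from CTRL to HIGH, with 1 marker shape per replicate letter and grey lines joining the libraries of a letter. The HIGH libraries lie apart from the CTRL libraries in all 4 panels, as the choice of these identifiers required. The library labelled MED replicate B lies beside the CTRL libraries in the panel of s2f_0000886006, at 63.2 CPM against 1047 to 2342 in the other MED libraries.

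The called identifiers were spread over the whole range of abundance, but the falls lay mainly among abundant ones. The identifiers tested were divided into 5 equal bins by their mean log2 CPM. In the lowest bin 7.52% were called higher and 2.43% lower, with medians of 0.89 and -0.69. In the middle bin 13.2% were called higher and 10.3% lower, with medians of 0.36 and -0.33. In the highest bin 13.4% were called higher and 17.4% lower, with medians of 0.28 and -0.26. The median SE of the fold changes (log2) was 0.233 in the lowest bin and 0.057 in the highest, so the smallest change that could be called also differed between the bins.

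As a description of the lists, with no test since these libraries chose them, the 2039 identifiers called higher held 15.2% ± 0.399 of all counts in HIGH libraries and 11.6% ± 0.320 in CTRL libraries (SD, n = 5 each). The 1809 called lower held 15.8% ± 0.251 in HIGH libraries and 19.1% ± 0.350 in CTRL libraries (SD, n = 5 each). The 5 HIGH libraries covered 14.7% to 15.6% for the first list, against 11.2% to 11.9% in the CTRL libraries, and 15.5% to 16.1% for the second, against 18.8% to 19.5% in the CTRL libraries.

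The replicate letter carried a large part of the spread between libraries. The letter itself differed at 2558 of 17479 identifiers (14.6% called, F test of the letter terms, same fit), a count that was 1590 without MED replicate C, 1421 without MED replicate F and 1355 without CTRL replicate F. Deviations from the group means went together in HIGH and CTRL libraries of the same letter, with correlations across identifiers of 0.227 (E) to 0.522 (F), while pairs of different letters had -0.334 to 0.146. Such deviations cancel out over the libraries of a group, so positive values at the same letter by themselves push those at different letters down. Across HIGH and MED, libraries of the same letter had 0.149 (B) to 0.501 (F). Across MED and CTRL the same measure was 0.07 at letter B and at most 0.533 (F). The biological coefficient of variation from the common dispersion was 9.41% with the letter in the fit and 14.0% without it. No source used here says what the letter stands for.

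The change at HIGH could be checked in libraries that had no part in choosing the identifiers. Each letter was left out in turn, the calls were made in the other 4 letters, and the HIGH and CTRL libraries of the letter left out were then read. Among identifiers that also passed the low-count filter with all libraries, the 5 fits called 1302 to 1951 higher and 1149 to 1887 lower. Over all identifiers each fit tested, the calls numbered 2575 (14.7% called) without letter A, 3844 (21.7%) without B, 3016 (17.1%) without C, 2451 (14.0%) without E and 2516 (14.4%) without F. Of those called higher, 88.4% (letter C) to 95.5% (letter A) were also higher in the HIGH library of the letter left out, against 49.6% to 51.7% of all identifiers. Of those called lower, 85.7% (letter B) to 97.0% (letter E) were also lower there, against 48.3% to 50.4% of all identifiers. The median log2 ratios in the letter left out were 0.31 to 0.44 for those called higher and -0.37 to -0.22 for those called lower. Letter F, whose libraries were the lowest of their levels on the first principal component, was among them, with 92.6% and 94.3% in the same direction.

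**Figure D3:**
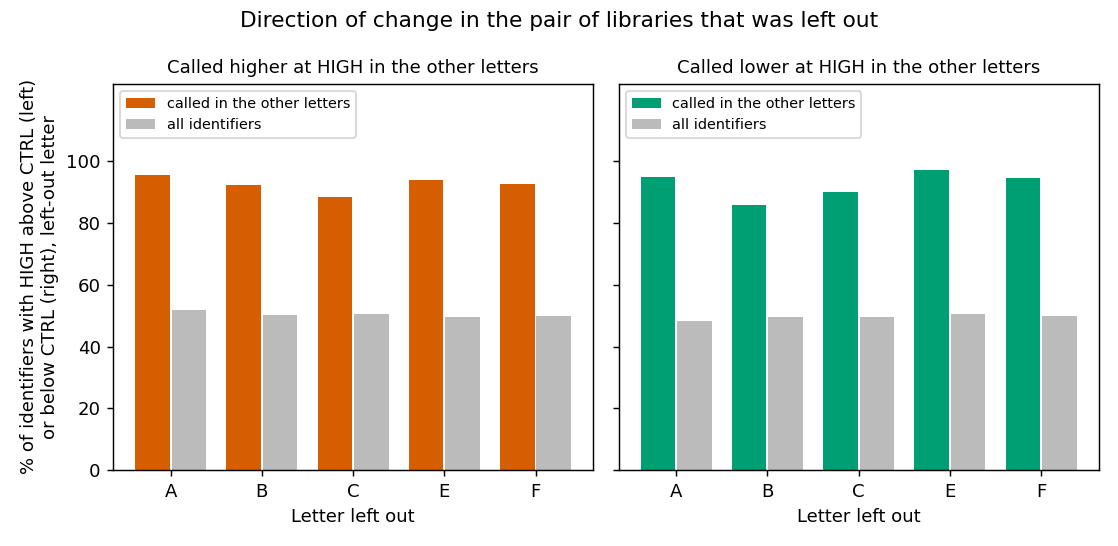
Percentage of identifiers with HIGH above CTRL (left panel) or below CTRL (right panel) in the pair of libraries of the letter left out, for identifiers called in that direction in the other 4 letters (coloured bars) and for all identifiers (grey bars). The coloured bars lie between 85.7% and 97.0%, and the grey bars between 48.3% and 51.7%.

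At the middle level the number of calls depended on which libraries were kept and on the test. MED and CTRL libraries differed at 13 of 17479 identifiers (0.0744% called; 9 higher and 4 lower) with all libraries, while 2064 had an unadjusted p below 0.05. Without the library labelled MED replicate B, 459 of 17604 identifiers were called (2.61%), 343 higher and 116 lower. The median log2 fold changes (MED over CTRL) of these were 0.53 and -0.32, and 67 of the 343 rose at least 2-fold. Leaving out a library because it lay with the controls by itself favours more calls. With all libraries and no letter in the fit 20 were called, all higher. Leaving out other libraries gave 42 calls (HIGH replicate B), 35 (CTRL replicate A), 22 (CTRL replicate B), 8 (HIGH replicate C), 6 (MED replicate A), 4 (MED replicate C), 3 (MED replicate E), 3 (MED replicate F) and 0 (CTRL replicates C, E and F, each left out alone; edgeR, with an unadjusted p below 0.05 at 1577 to 1824 identifiers). With all libraries 226 were called by DESeq2, 164 higher and 62 lower.

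The MED values of the 4 identifiers followed by code were as follows. In MED replicates A, B, C, E and F, s2f_0000886006 stood at 1277, 63.2, 1723, 1047 and 2342 normalised CPM. The library labelled MED replicate B was thus just above the highest CTRL library, at 62.6 CPM, while the other 4 were at 1047 CPM or more. The log2 fold change (MED over CTRL) was 4.23 ± 0.74 with all libraries (SE; edgeR adjusted p = 0.09) and 4.71 ± 0.18 without that library (SE; edgeR adjusted p = 8.79e-07). The second p-value, and those without this library below, do not allow for its having been singled out by its values.

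The MED values of s2f_0000076002 were 23.0, 13.7, 21.8, 19.8 and 20.02 normalised CPM in replicates A, B, C, E and F. The library labelled MED replicate B was below every CTRL library, and the other 4 were above every CTRL library and below every HIGH library. Its log2 fold change (MED over CTRL) was 0.39 ± 0.096 with all libraries (SE; edgeR adjusted p = 0.114) and 0.50 ± 0.072 without that library (SE; edgeR adjusted p = 0.000503).

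For the identifiers that fell at HIGH the MED libraries overlapped the controls. In MED replicates A, B, C, E and F, s2f_0005342001 stood at 97.2, 176, 67.0, 42.0 and 130 normalised CPM, with the library labelled MED replicate B and MED replicate F within the range of the CTRL libraries. Its log2 fold change (MED over CTRL) was -0.71 ± 0.36 with all libraries (SE; edgeR adjusted p = 0.498) and -0.997 ± 0.33 without that library (SE; edgeR adjusted p = 0.223). The values of s2f_0002280005 were 23.0, 21.5, 21.9, 16.9 and 25.8 in the same order. Here the library labelled MED replicate B lay among the other MED libraries and below every CTRL library. The log2 fold changes (MED over CTRL) with and without it were -0.29 ± 0.084 (SE; edgeR adjusted p = 0.168) and -0.36 ± 0.081 (SE; edgeR adjusted p = 0.0242).

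Each library was also placed between the CTRL and HIGH groups over many identifiers, a description added after the library labelled MED replicate B was seen to stand with the controls. The 188 identifiers raised and 21 lowered at least 2-fold in a fit of HIGH and CTRL libraries alone were used, so that no MED library had a part in choosing them. For each identifier the CTRL mean was set at 0% and the HIGH mean at 100%, and a library's position is its median over the identifiers. Over the raised identifiers the MED libraries lay at 60.4% (A), -2.52% (B), 68.6% (C), 73.8% (E) and 53.1% (F). Over the lowered identifiers they lay at 43.2% (A), 4.56% (B), 54.7% (C), 62.0% (E) and 18.6% (F). On both lists the library labelled MED replicate B fell within the span of the CTRL libraries, which was -2.97% to 4.40% on the first and -14.9% to 13.7% on the second, and the other 4 MED libraries fell between CTRL and HIGH. On the second list letter F had the lowest HIGH library as well as a low MED library, at 70.4% against 87.8% to 123% for the other HIGH libraries.

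**Figure D4:**
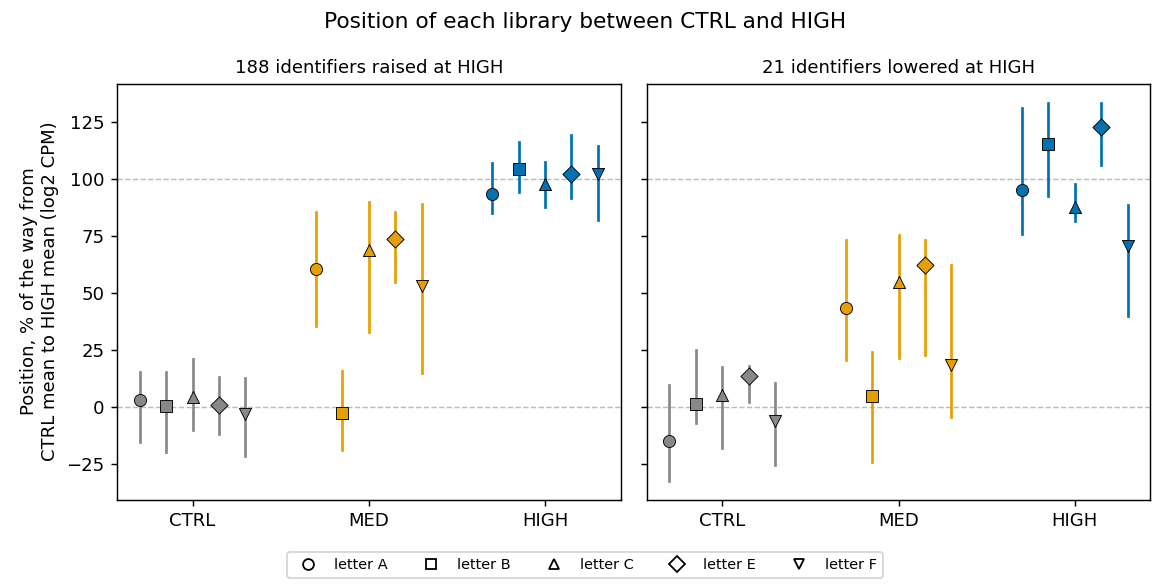
Position of each library as a percentage of the way from the CTRL mean to the HIGH mean on the log2 CPM scale, for 188 identifiers raised and 21 lowered at HIGH, by level from CTRL to HIGH, with 1 marker shape per replicate letter. Points are medians over identifiers and lines run between quartiles; the library labelled MED replicate B lies at -2.52% and 4.56%, with the CTRL libraries, and the other MED libraries lie at 18.6% to 73.8%.

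The difference between the lead levels was tested directly. HIGH and MED libraries differed at 2363 of 17479 identifiers (13.5% called; 1104 higher and 1259 lower in HIGH embryos). Without the library labelled MED replicate B, 1310 of 17604 were called (7.44%; 665 higher and 645 lower), and with all libraries but no letter in the fit 370 were called (191 higher and 179 lower). Leaving out other libraries took the count to 1149 (HIGH replicate B), 1413 (HIGH replicate E), 1499 (MED replicate F), 1515 (HIGH replicate A) and 1520 (HIGH replicate F). The called differences had medians of 0.34 for those higher and -0.30 for those lower in HIGH embryos, and at least 2-fold differences numbered 32 and 12. Without the library labelled MED replicate B the medians were 0.36 and -0.29 and the 2-fold differences numbered 27 and 9.

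The comparisons of HIGH and MED with CTRL share the same control libraries, so their values are only set side by side. Lists called at HIGH were chosen by their HIGH values, which by itself favours larger medians at HIGH than at MED. For lists called at MED the choice favours MED. The identifiers called higher at HIGH had a median log2 fold change of 0.40 at HIGH and 0.13 at MED with all libraries, and 0.41 at HIGH and 0.17 at MED without the library labelled MED replicate B. Those called lower had -0.32 at HIGH and -0.085 at MED with all libraries, and -0.31 at HIGH and -0.11 at MED without it. The medians of all 17479 identifiers were 0.0016 at HIGH and 0.0065 at MED with all libraries, and 0.011 at HIGH and 0.0061 at MED without it. The 343 identifiers called higher at MED without that library had medians of 0.62 at HIGH and 0.53 at MED, and the 116 called lower had -0.42 at HIGH and -0.32 at MED. With all libraries the same identifiers had 0.62 at HIGH and 0.42 at MED, and -0.43 at HIGH and -0.25 at MED.

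Since the labels give no concentrations, the shape of the response was tested only against the midpoint of the CTRL and HIGH levels on the log scale. With all libraries MED lay off that midpoint at 6 of 17479 identifiers (0.0343% called; 3 above and 3 below), and at 0 with no letter in the fit (edgeR; 1205 had an unadjusted p below 0.05). DESeq2 with the letter called 117. Without the library labelled MED replicate B, 91 of 17604 were called (0.517%), 78 above the midpoint and 13 below, and 27 were called without MED replicate A. Leaving out other libraries gave between 0 and 3 calls for HIGH replicates A, B, C and E, MED replicates C, E and F and CTRL replicates B, C and F, each left out alone (edgeR, with 1862 to 2517 identifiers at an unadjusted p below 0.05).

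Each named rise was set against its own midpoint. The p-values without the library labelled MED replicate B again do not allow for its having been singled out by its values. Without the library labelled MED replicate B, s2f_0000886006 was 2.18 ± 0.14 above the midpoint on the log2 scale (SE; edgeR adjusted p = 0.000173), and the difference of HIGH over MED was 0.34 ± 0.16 (SE; edgeR adjusted p = 0.256). In the same fit s2f_0000076002 was -0.20 ± 0.062 from its midpoint (SE; edgeR adjusted p = 0.23), and HIGH exceeded MED by 0.90 ± 0.068 (SE; edgeR adjusted p = 6.02e-06). With all libraries s2f_0000886006 was 1.70 ± 0.57 above the midpoint (SE; edgeR adjusted p = 0.259), and its difference of HIGH over MED was 0.83 ± 0.66 (SE; edgeR adjusted p = 0.448). With all libraries s2f_0000076002 was -0.31 ± 0.081 from its midpoint (SE; edgeR adjusted p = 0.157), and HIGH exceeded MED by 1.002 ± 0.09 (SE; edgeR adjusted p = 9.88e-05).

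The changed identifiers were next read in other tables of the series. The series covers 6 species, and identifiers carry the same codes across them. For this a single table was read for each species, and the tables read for birds were of liver. Of the identifiers called higher at HIGH lead, 70.9% were listed in the tables read for all 6 species. The shares were 64.5% of those called lower and 64.1% of all tested. Identifiers listed, among these tables, only for minnow or only for minnow and rainbow trout made up 8.93% of those called higher. They made up 6.85% of those called lower and 12.5% of all tested. The lists were also unequal in abundance, with a median log2 CPM of 4.06 for those called higher, 4.92 for those called lower and 3.79 for all tested. The part of abundance in these shares was not tested, nor that of the tissue and depth of the tables read.

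The lists differed in where they are abundant in unexposed fish. Control libraries of adult minnow liver (5, from the benzo[a]pyrene table) were set against the 5 CTRL embryo libraries, as log2(CPM + 1) in the identifiers common to both tables. The tables were prepared apart, so this is a description of levels with no test. The same CTRL embryo libraries also helped to choose the lists. That by itself favours high embryo levels in those called lower and low ones in those called higher. The identifiers called lower by lead had a median of -3.63 (liver minus embryo, quartiles -4.66 and -2.63), against -1.75 over all identifiers tested. Among them 95.2% were over 2-fold lower in liver, against 73.1% of all. The identifiers called higher had a median of -1.30, and 8.11% of them were over 2-fold higher in liver, against 2.95% of all and 0.854% of those called lower. The lists also differed in abundance, as given above, and the part of abundance in these differences was not tested.

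The same identifiers were read in 9 other experiments, none of which shares a control library with the lead table. In minnow embryos given benzo[a]pyrene, a polycyclic aromatic hydrocarbon that activates the aryl hydrocarbon receptor, those raised by lead had a median log2 fold change (HIGH over CTRL) of 0.26 and those lowered had -0.14, against 0.022 over all identifiers. With benzo[a]pyrene 81.5% of the raised identifiers were above 0 and 77.2% of the lowered were below 0, against 52.4% and 47.6% of all. Selenomethionine gave 0.10 and -0.051, hexabromocyclododecane 0.084 and -0.04, and chlorpyrifos 0.038 and -0.056. Ethinylestradiol gave -0.017 and 0.0069, and trenbolone 0.044 and 0.041. Medians over all identifiers were 0.00064 (selenomethionine), 0.0023 (hexabromocyclododecane), -0.0048 (chlorpyrifos), -0.0020 (ethinylestradiol) and 0.020 (trenbolone). With trenbolone 57.3% of the raised identifiers were above 0, against 54.3% of all. Only 38.8% of the lowered were below 0 with trenbolone, against 45.7% of all. Fluoxetine, a serotonin reuptake inhibitor, gave the opposite signs: the raised identifiers had a median of -0.042 and the lowered ones 0.11, and 21.6% of the lowered identifiers were below 0, against 48.4% of all.

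Lead itself gave small medians of the same signs in other species. In clawed frog embryos at HIGH lead the identifiers raised in minnow embryos had a median of 0.053 and those lowered had -0.053. The median over all 11979 identifiers tested in both was -0.0040. There 61.3% of the raised identifiers were above 0, against 49.0% of all, and 69.3% of the lowered were below 0, against 51.0% of all. In the liver of quail labelled adult the medians were 0.064 and -0.11, against 0.0090 over all 9180 identifiers tested in both. In that liver 57.6% of the raised were above 0, against 51.2% of all, and 60.4% of the lowered were below 0, against 48.8% of all. The level named HIGH need not be the same dose in different species, since the labels give none.

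**Figure D5:**
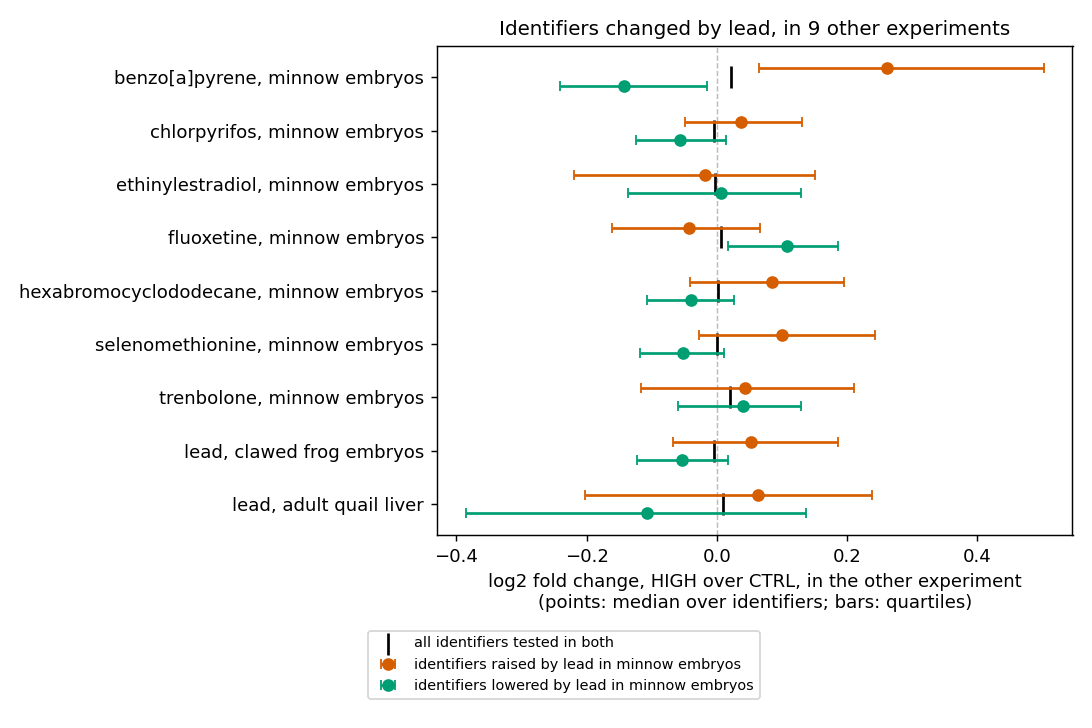
Log2 fold change (HIGH over CTRL) in 9 other experiments of the identifiers raised and lowered by HIGH lead in minnow embryos, as medians with quartiles over identifiers, and the median of all identifiers tested in both (black ticks). Benzo[a]pyrene in minnow embryos has the widest separation of the medians, at 0.26 and -0.14. Fluoxetine has the widest separation in the opposite order, at -0.042 and 0.11.

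The difference between the effects of HIGH lead and HIGH benzo[a]pyrene in minnow embryos was tested as an interaction over both tables. It was called at 225 of 17795 identifiers (1.26% called), 49 where lead gave the more positive change and 176 where it gave the more negative. At the 49, the median log2 fold change was 1.09 with lead and -0.14 with benzo[a]pyrene. At the 176, it was 0.063 with lead and 1.28 with benzo[a]pyrene. With the letter of each table in the fit 77 were more positive with lead and 174 more negative. DESeq2 called 364, of which 117 were more positive with lead (32.1%, against 21.8% in edgeR). Of the 3848 identifiers called at HIGH lead, 97 (2.52%) differed from benzo[a]pyrene in this test, which does not show that the other changes were alike. The same lead libraries chose the 3848, which by itself favours a difference.

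The named identifiers were chosen by their change in these same lead libraries. That choice by itself favours a difference, and the p-values do not allow for it. Of the named identifiers, s2f_0000886006 had the more positive change with lead, with a difference of 3.45 ± 0.74 on the log2 scale (SE; edgeR adjusted p = 0.00987) between changes of 5.10 and 1.65. For s2f_0000076002 the changes were 1.40 with lead and 1.38 with benzo[a]pyrene, a difference of 0.021 ± 0.48 (SE; edgeR adjusted p = 0.993). The named falls had the more negative change with lead: the difference was -2.76 ± 0.71 for s2f_0005342001 (SE; edgeR adjusted p = 0.045) and -1.03 ± 0.20 for s2f_0002280005 (SE; edgeR adjusted p = 0.00255). With benzo[a]pyrene the changes of these were 0.32 and -0.20. In the benzo[a]pyrene table tested alone, none of the 4 changes passed the test (edgeR adjusted p = 0.111 for s2f_0000886006, 0.186 for s2f_0000076002, 0.752 for s2f_0005342001 and 0.539 for s2f_0002280005).

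The effect of HIGH lead in minnow embryos was set against that in African clawed frog (Xenopus laevis) embryos in the same way. It differed at 306 of the 15647 identifiers tested (1.96% called), which were those in both tables that passed the low-count filter. Of the 306, 72.2% were more positive in the minnow and the other 85 more negative. With the letter of each table in the fit 865 were called (564 more positive and 301 more negative). The split between directions depended on the scaling of the libraries: with RLE size factors 168 of 317 were more positive in the minnow (53.0%), and with DESeq2 280 of 548 (51.1%), against 72.2% with TMM factors. The same minnow libraries chose the 3298 identifiers called at HIGH lead and tested here, and 255 of these (7.73%) differed between the species. At those more positive in the minnow the median log2 fold change was 0.75 in the minnow and -0.18 in the frog, and at the 85 it was -0.20 in the minnow and 0.62 in the frog.

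Both named rises differed between the species. They were chosen by their change in these same minnow libraries, which by itself favours a difference, and the p-values do not allow for that. For s2f_0000886006 the difference (minnow minus frog) was 5.50 ± 0.69 (SE; edgeR adjusted p = 2.77e-05), between changes of 5.10 in the minnow and -0.41 in the frog. For s2f_0000076002 it was 1.55 ± 0.17 (SE; edgeR adjusted p = 2.42e-06), between 1.40 in the minnow and -0.15 in the frog. The named falls were not among the identifiers tested in the frog. Over the other 6 chemicals in minnow embryos, s2f_0000886006 had log2 fold changes of -1.03 (trenbolone) to 0.42 (hexabromocyclododecane) and s2f_0000076002 of -0.28 (hexabromocyclododecane) to 0.16 (ethinylestradiol), and none passed its own test.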

How the data were processed

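Per the labels' protocols, embryo RNA was extracted with Qiagen RNeasy Universal kits and sequenced as paired-end reads on NovaSeq or HiSeq instruments. The authors deposited raw counts, whole numbers for each s2f identifier, in 49 tables by species, stage and chemical, of which 14 were read. The aligner, the counter and the reference were not given in the sources used here. Every per-sample column read matched 1 sample (0 did not).

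Identifiers were filtered with filterByExpr (minimum count 10, minimum total 15), scaled by TMM factors and fitted with edgeR 4.0.16 (limma 3.58.1, R 4.3.3) by a robust quasi-likelihood fit with level and replicate letter over all 15 libraries; p-values were Benjamini-Hochberg adjusted over all identifiers tested and called below 0.05. Normalised CPM are counts scaled by library total and TMM factor; log2 CPM used a prior count of 2, and standard errors are the fold change divided by the square root of F. The interactions were fitted with no letter. Clawed frog controls C and C.1 differed by little more than sampling noise (a chi-square of 1.30 for each degree of freedom) and were summed into 1. DESeq2 1.42.0, RLE factors, no filter, no block, non-robust fits and left-out libraries were alternatives. The scripts were tested on simulated data.

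The letter was used as a block because the comparison was defined with it. The check of same-letter correlations (all above 0.1) held for HIGH with CTRL and HIGH with MED, and failed for MED with CTRL at letter B. Named identifiers were the largest change and the smallest p among the others in each direction, of those called, at a mean of at least 5 CPM in the higher group and with no overlap between HIGH and CTRL libraries. The members, lists and tests were chosen with earlier results of these data known, and lists of haem, metal-response, neuronal and marker genes had no member that could be matched. Sequences and genome positions of the identifiers were not analysed here.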

Additional observations from a re-analysis of the deposited data

Results flagged for a closer look

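In 30 sets of 5 libraries checked for a value far from the rest of its group, 3 were picked out, where chance gives about 1 in 20. The sets share libraries. The position between CTRL and HIGH was added after the library labelled MED replicate B was seen to stand with the controls. The count of 3 therefore cannot be weighed against chance. HIGH replicate F had 2977 normalised CPM of s2f_0000886006, against 1557 to 1966 in the other HIGH libraries. HIGH replicate F also lay at -1.81 on the first principal component, against 21.4 to 25.5. The library labelled MED replicate B lay at -2.52% of the way from CTRL to HIGH over the raised identifiers, against 53.1% to 73.8% in the other MED libraries.

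Differences between experiments passed the test of the difference itself in these cases. The effect of HIGH lead differed from that of HIGH benzo[a]pyrene in minnow embryos at 225 identifiers, and from that of HIGH lead in clawed frog embryos at 306. Against benzo[a]pyrene, the difference was 3.45 for s2f_0000886006, -2.76 for s2f_0005342001 and -1.03 for s2f_0002280005 on the log2 scale. Against the clawed frog it was 5.50 for s2f_0000886006 and 1.55 for s2f_0000076002. The named identifiers were chosen by their change in the lead minnow libraries, which by itself favours large differences.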

How the results depend on the processing

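Each of the 4 named identifiers kept its direction and its call under the 27 alternatives tried on it; their log2 fold changes spanned 4.62 to 5.36, 1.31 to 1.43, -2.77 to -2.26 and -1.32 to -1.19. HIGH against CTRL gave 2197 calls with no replicate block and 2203 with a non-robust fit and no block, 2538 to 4446 with 1 library left out, and 2451 without letter E and 2516 without letter F. MED against CTRL (edgeR) gave 20 with no replicate block, 49 with a non-robust fit and no block, 78 with a non-robust fit and the block, 21 with no filter, 6 with only those groups, 226 with DESeq2, 0 to 459 with 1 library left out, 365 without letter B and 0 without each of letters A, C, E and F (1448 to 1911 at an unadjusted p below 0.05). HIGH against MED gave 370 with no replicate block, 344 with a non-robust fit and no block, 1149 to 2662 with 1 library left out, and 1314, 1572, 1509 and 1152 without letters B, C, E and F. MED against the midpoint (edgeR) gave 0 with no replicate block, with either non-robust fit and without letters C and F (1205 to 2588 at an unadjusted p below 0.05), 117 with DESeq2, 10 without letter A, 86 without letter B and 0 to 91 with 1 library left out. The letter itself gave 1355 to 3428 with 1 library left out. The difference from benzo[a]pyrene gave 364 with DESeq2, and 77 more positive and 174 more negative with lead with the replicate block, against 49 and 176. The difference from the clawed frog gave 865 with the replicate block, 548 with DESeq2 and 205 to 307 with 1 library left out. The cause of these shifts was not tested. Alternatives not listed stayed within 1.5 times the reported total count, and the library measures stayed on their side of the threshold. The non-robust fits and left-out letters were chosen after seeing the data. The library labelled MED replicate B was also singled out after seeing the data. The 5 libraries a group and depths from 14073327 counts limit what can be called among scarce identifiers.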
